A study of Mus musculus with 42 samples.

Results

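Cardiac and lateral mesoderm regulators were followed as 10 genes, Isl1, Hand1, Hand2, Nkx2-5, Tbx5, Tbx20, Mef2c, Foxf1, Meox1 and Smarcd3, out of 20972 genes that carry a named probe on the array. Members were chosen by name, and each gene is given by its brightest probe over all 42 arrays. The cells were a dual reporter mouse embryonic stem cell (ESC) line in which GFP reports the goosecoid gene Gsc and RedStar reports Hhex. They were differentiated towards anterior definitive endoderm (ADE), the gut tube precursor, through a state that models the primitive streak. The 11 untreated groups were ESC, d2 cells, the Gsc-negative (G-) and Gsc-positive (G+) cells sorted at d3 and d4, the G-, Glow and Ghigh cells sorted at d5, and the Hhex-negative (G+H-) and Hhex-positive (G+H+) cells of high Gsc sorted at d6. The 3 inhibitor groups were d6 cultures whose labels name no sort. Control received the solvent DMSO throughout, ADE_EPZ received DMSO as ESCs and then the EZH2 inhibitor EPZ6438 at 2.5 µM during differentiation, and ES_EPZ received EPZ6438 as ESCs and then DMSO. All groups come from 1 reporter line and each has 3 arrays, described as independent experiments. Since the reporters set the gates, Gsc and Hhex themselves are no finding between sorted populations.

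The lateral plate is the part of the mesoderm that leaves the streak to form the heart, the body wall, the limb buds and the muscular wall of the gut. Heart progenitors use a small circuit of transcription factors in which ISL1 marks the second heart field, NKX2-5 and MEF2C act with GATA and T-box factors on heart genes, and HAND1 and HAND2 are basic helix-loop-helix factors of the ventricles. FOXF1 marks splanchnic mesoderm, MEOX1 is a homeodomain factor of somites, and SMARCD3, also called BAF60c, is the BAF chromatin remodelling subunit that works with cardiac T-box factors. Several of these genes are also read by other tissues: Hand1 and Foxf1 by extraembryonic mesoderm, and Isl1 by foregut endoderm and neurons. EZH2 is the enzyme of Polycomb repressive complex 2 (PRC2), which trimethylates histone H3 on lysine 27 and is commonly found at CG-rich promoters of developmental genes.

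Promoter windows of 300 bases, from 250 before to 50 after the start of transcription, were held in the RefSeq-derived table of build GRCm38.p6 for 6 of the 10 genes, Isl1, Hand2, Nkx2-5, Tbx20, Mef2c and Smarcd3. The following 4 are shown because they belong to Hand2 and Tbx20, which were both called higher in d4 G+ and at d5 than in ESC, to Isl1, whose pattern differed, and to Smarcd3, which was called lower in ADE_EPZ. That Smarcd3 call was lost when any 1 compared array was left out. Each window is written 5′ to 3′ on the gene's strand, with every CG dinucleotide, the site of DNA methylation, in capitals.
Hand2, chr8:57320733-57321032, plus strand: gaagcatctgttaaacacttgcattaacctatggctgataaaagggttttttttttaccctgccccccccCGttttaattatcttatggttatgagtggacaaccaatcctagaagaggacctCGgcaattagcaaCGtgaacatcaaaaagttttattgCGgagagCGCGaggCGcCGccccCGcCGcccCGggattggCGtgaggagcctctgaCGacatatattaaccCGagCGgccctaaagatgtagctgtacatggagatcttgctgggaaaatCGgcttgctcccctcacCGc
Tbx20, chr9:24774254-24774553, minus strand: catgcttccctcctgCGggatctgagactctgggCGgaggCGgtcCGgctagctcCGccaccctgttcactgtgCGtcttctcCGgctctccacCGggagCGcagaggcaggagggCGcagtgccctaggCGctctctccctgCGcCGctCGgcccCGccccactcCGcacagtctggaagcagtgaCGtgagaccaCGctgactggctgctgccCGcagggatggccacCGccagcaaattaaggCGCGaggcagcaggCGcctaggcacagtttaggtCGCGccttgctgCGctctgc
Isl1, chr13:116309639-116309938, minus strand: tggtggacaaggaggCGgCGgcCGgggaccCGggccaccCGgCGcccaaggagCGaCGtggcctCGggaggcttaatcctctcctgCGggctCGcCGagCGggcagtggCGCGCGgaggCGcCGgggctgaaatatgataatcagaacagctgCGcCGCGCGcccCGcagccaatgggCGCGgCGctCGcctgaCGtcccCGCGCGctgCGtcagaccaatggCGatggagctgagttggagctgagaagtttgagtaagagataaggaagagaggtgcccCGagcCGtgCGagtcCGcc
Smarcd3, chr5:24601953-24602252, minus strand: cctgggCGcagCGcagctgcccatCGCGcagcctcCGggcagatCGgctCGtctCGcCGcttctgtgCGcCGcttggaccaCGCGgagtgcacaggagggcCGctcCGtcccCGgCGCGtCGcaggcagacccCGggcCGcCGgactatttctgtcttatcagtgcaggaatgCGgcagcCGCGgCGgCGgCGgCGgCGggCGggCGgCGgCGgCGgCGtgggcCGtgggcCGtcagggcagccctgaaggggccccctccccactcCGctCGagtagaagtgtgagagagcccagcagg
These windows were rich in CG. Smarcd3 holds 40 CG dinucleotides, more than in 96.1% of the 32851 windows of the same length, Isl1 holds 37 (94.4%), Tbx20 holds 26 (83.1%) and Hand2 holds 17 (68.6%), where the median window holds 7. The Nkx2-5 window holds 9, and the 3 windows of Mef2c hold 1, 4 and 10. The E-box letters CANNTG, which basic helix-loop-helix factors read, occur 2 times in Hand2 and 1 time each in Isl1 and Smarcd3, and do not occur in Tbx20; they are in 72.3% of all windows. The GATA letters GATAA on either strand occur 2 times each in Isl1 and Hand2 and 1 time in Smarcd3, against 25.4% of all windows with at least 1. The letters AAGTG on either strand, read by NK homeodomain factors, occur 1 time each in Hand2 and Smarcd3 (46.4% of windows) and can overlap an E-box. The T-box half-site AGGTGT is on neither strand of the 4 (13.7% of windows).

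Each array measured 55681 unique probes, of which 24459 to 40398 were well above background by the scanner software and 0 values were saturated, and the number of arrays limits the precision. Values are the deposited log2 intensities, in which 1 unit is a 2-fold difference and background lies near 5. Levels of different genes come from different probes and are not set against each other. Replicates 1 and 2 of the untreated groups share 3 slides, and replicate 3 fills 2 others that were scanned at another time. The inhibitor series fills 3 separate slides that hold Control, ADE_EPZ and ES_EPZ once each, so its levels and those of the untreated groups cannot be told apart from the slides. Definitive endoderm markers (10 genes) rose from a mean of 6.41 to 6.64 in the ESC arrays to 13.07 to 13.21 in d6 G+H+, and pluripotency markers (12 genes) fell from 13.18 to 13.75 to 7.40 to 7.64. All 10 endoderm markers were called higher in d6 G+H+ than in ESC, where 11.1% of all genes were called in either direction. The endoderm markers include Hhex and the primitive streak markers used below include Gsc, whose reporters set the gates. The part of these genes in the marker values of sorted populations is no finding. Of the other cell types, 2 of 12 haemato-vascular markers were called higher and 2 lower in d6 G+H+ than in ESC, 6 of 10 visceral endoderm markers were called higher, and 0 of 10 neural markers were called higher and 3 lower. A gene was called where limma gave an adjusted p no greater than 0.01 and the means differed by 1.5 log2 units or more. In these bulk samples, fewer cells of a type and less RNA per cell cannot be told apart.

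Across the untreated groups 7 of the 10 genes had their highest mean in d5 Glow: Hand1, Hand2, Foxf1, Meox1, Tbx5, Tbx20 and Smarcd3. In each of these 7 the d5 Glow arrays overlapped those of the group with the next highest mean. Isl1 was highest in d6 G+H+, Nkx2-5 in d4 G+, and Mef2c stayed near background. Against ESC, 7 genes were called in d4 G+ (Foxf1, Hand1, Hand2, Isl1, Meox1, Tbx20 and Tbx5), all higher, where 7.41% of all genes were called in either direction. The same count of 7 was found in d5 Glow (7.74% of all genes), 6 in d5 Ghigh (8.19%), 5 in d5 G- (4.32%), 2 in d3 G+ (6.59%) and, at d6, 2 in G+H- (10.2%) and 2 in G+H+ (11.1%). No member was called in d2 (1.73%), d3 G- (2.42%) or d4 G- (3.21%), where limma gave 1 member each an unadjusted p under 0.05. The median difference of the 10 genes from ESC was 2.11 in d4 G+ and 3.20 in d5 Glow, against 0.03 and 0.02 over all genes, and at d6 it was 0.25 in G+H- and 0.13 in G+H+.

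**Figure D1:**
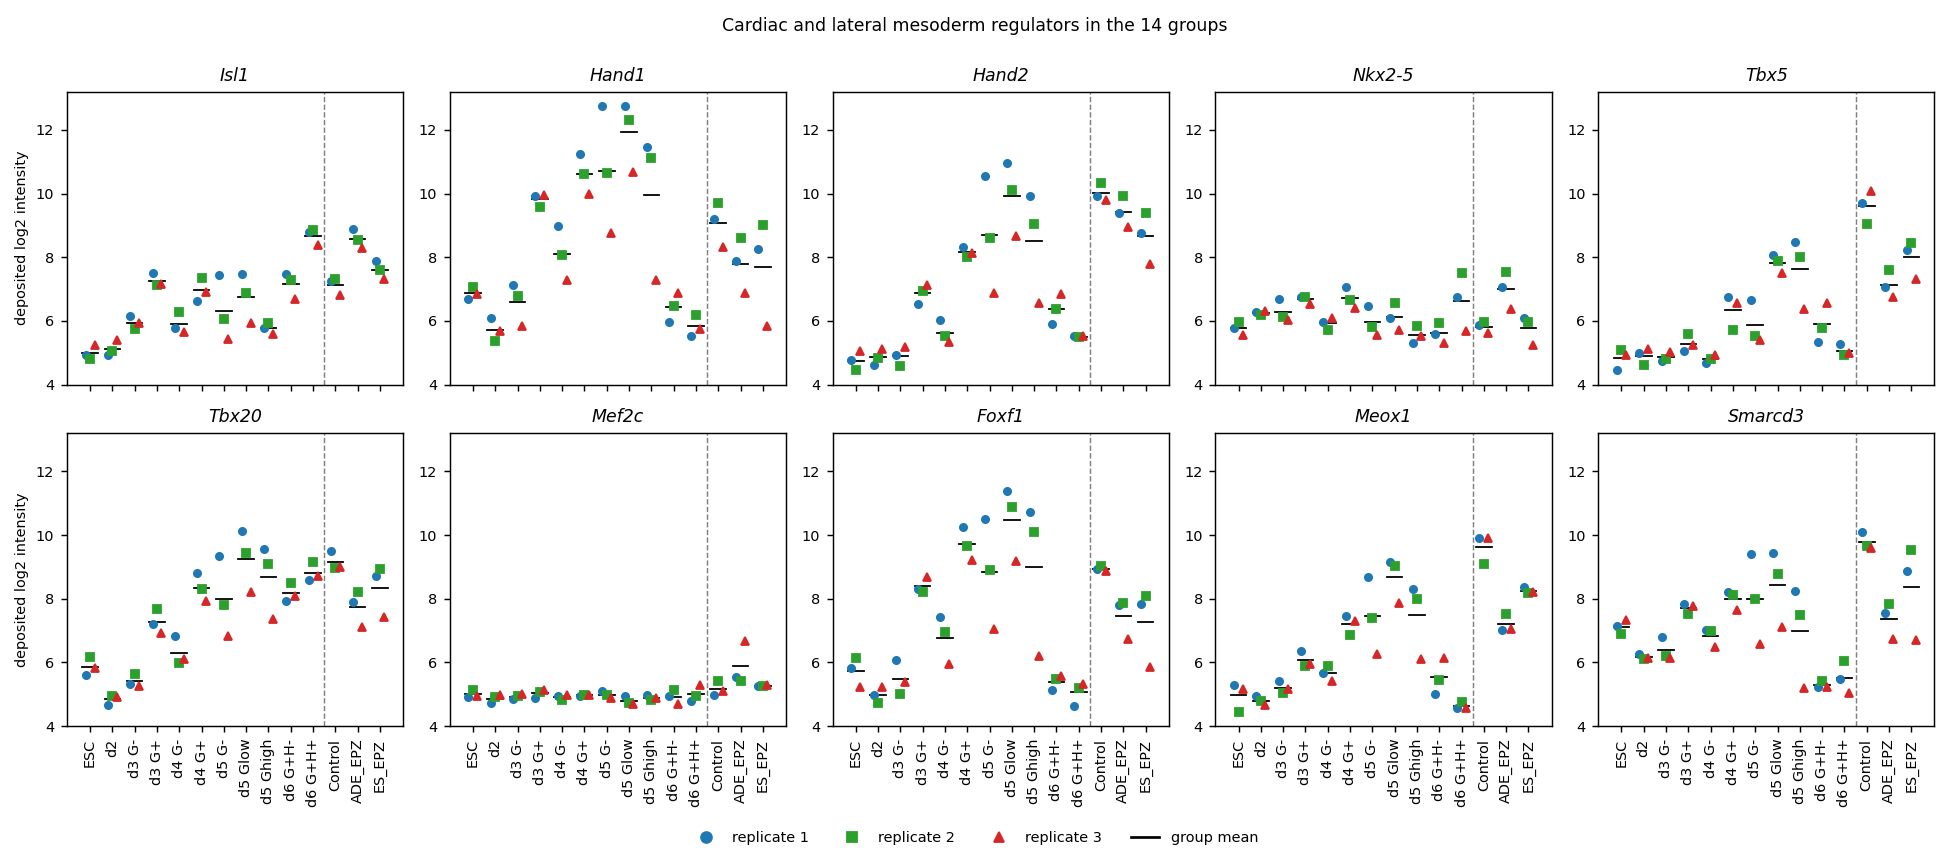
Deposited log2 intensity of each member in the 14 groups, with a point for each array (circle, square and triangle for replicates 1, 2 and 3) and a bar for the group mean; the dashed line separates the untreated from the inhibitor series. 7 genes have their highest mean at d5 Glow among the untreated groups and Isl1 at d6 G+H+. Mef2c lies near 5 throughout the untreated groups.

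**Figure D2:**
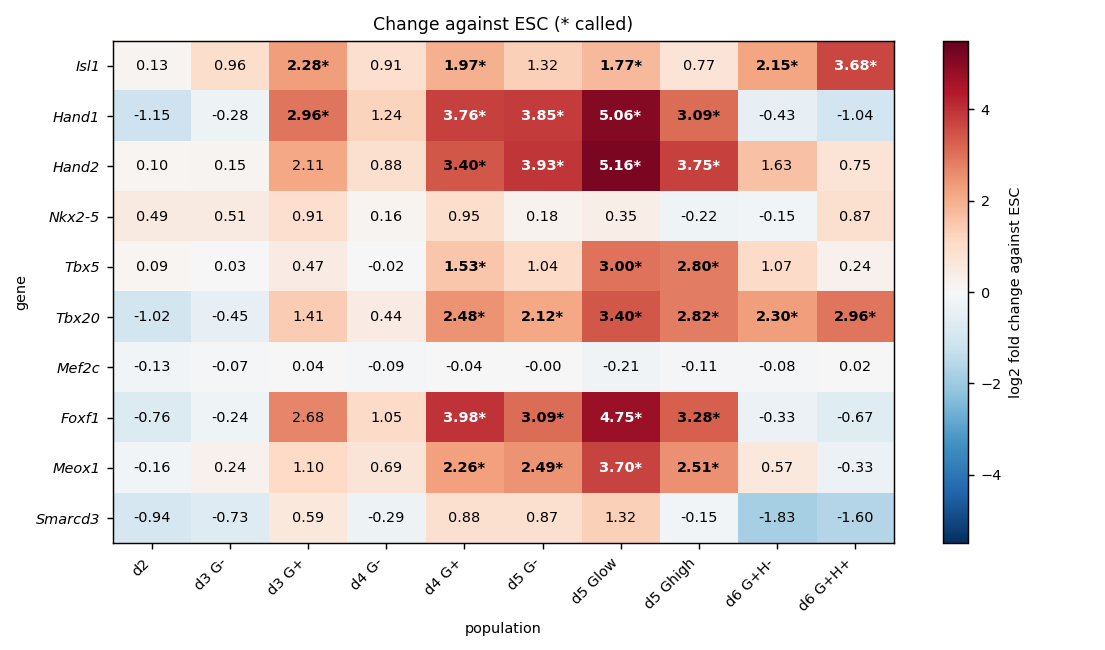
Log2 fold change of each member against ESC for the 10 later untreated populations, with called values marked by an asterisk. Asterisks fill d4 G+, d5 G-, d5 Glow and d5 Ghigh for Hand1, Hand2, Tbx20, Foxf1 and Meox1, and at d6 only Isl1 and Tbx20 carry an asterisk; the ESC signal of Isl1, Hand2 and Tbx5 was not well above background, so no exact fold can be read for them.

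Hand1 was measured above background on all 42 arrays and spanned 6.21 log2 units between untreated group means. It was 6.70, 7.06 and 6.84 in ESC, 5.37 to 6.10 in d2, and 9.93, 9.58 and 9.97 in d3 G+. In d5 Glow it reached 12.76, 12.32 and 10.68, and all 3 arrays lay above every ESC array, as for 20.4% of all genes. Its difference from ESC was 5.06 ± 0.83 (SE, n = 3, limma adjusted p = 1.52e-05), a 33.3-fold change. At d6 it was 5.97, 6.46 and 6.87 in G+H- and 5.52, 6.20 and 5.76 in G+H+, and it was called against ESC in neither. The d3 G+ call against ESC (2.96, limma adjusted p = 0.00942) was lost when any 1 of its 6 arrays was left out, at differences of 2.88 to 3.09. The d5 G- call (3.85) was lost without d5 G- replicate 1, at 2.84, and the d5 Ghigh call (3.09) without any ESC array or without d5 Ghigh replicate 1 or 2, with 2.32 as the lowest difference. The d2 arrays all lay below the ESC arrays, as for 12.6% of all genes, a difference of -1.15 that was not called.

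Foxf1 also had its highest mean in d5 Glow. It was 5.82, 6.13 and 5.23 in ESC, 8.32, 8.22 and 8.67 in d3 G+, 10.25, 9.65 and 9.21 in d4 G+ and 11.39, 10.87 and 9.17 in d5 Glow. The d5 Glow difference from ESC was 4.75 ± 0.76 (SE, n = 3, limma adjusted p = 9.46e-06), a 26.9-fold change. In d6 G+H+ it was 4.63, 5.21 and 5.33, with 1 of 3 arrays above background. At d3 G+ its difference of 2.68 came just short of the call, at a limma adjusted p of 0.0101. Its d5 G- call (3.09) was lost without ESC replicate 1 or 3 or d5 G- replicate 1 or 2, and its d5 Ghigh call (3.28) without ESC replicate 3 or d5 Ghigh replicate 1 or 2, at differences of at least 2.25 and 2.42.

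Hand2 was not above background on any ESC array and was first called at d4. Its values were 4.77, 4.45 and 5.05 in ESC, 6.53, 6.93 and 7.14 in d3 G+, 8.32, 8.01 and 8.14 in d4 G+ and 10.95, 10.11 and 8.68 in d5 Glow. The d5 Glow level was at least 32.3-fold above ESC (limma adjusted p = 7.16e-08), a bound taken against the higher of the dimmest probe above background and the probe's own signal. At d4 G+ it was at least 9.56-fold above ESC (limma adjusted p = 8.08e-05), and its d3 G+ level missed the call at 0.0144. At d6 it was 5.91 to 6.86 in G+H- and 5.49 to 5.52 in G+H+, and was called against ESC in neither.

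Of the T-box genes, Tbx20 was called against ESC in d4 G+ and in all d5 and d6 populations. It was 5.60, 6.16 and 5.83 in ESC, not above background on any d2 array, 8.81, 8.30 and 7.92 in d4 G+, and 10.14, 9.42 and 8.22 in d5 Glow, where it exceeded ESC by 3.40 ± 0.49 (SE, n = 3, limma adjusted p = 2.14e-06). At d6 it remained at 7.93, 8.48 and 8.08 in G+H- and 8.60, 9.15 and 8.70 in G+H+, which were 2.30 and 2.96 above ESC (limma adjusted p = 4.37e-04 and 1.22e-05). Its d5 G- call (2.12) was lost without ESC replicate 1 or 3 or d5 G- replicate 1, at 1.44 as the lowest difference.

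Tbx5, the T-box factor of the first heart field and the forelimb, was above background on all 3 arrays of a group first in d4 G+. It was not above background on any ESC array (4.45 to 5.09) and was on 1 of 3 in d3 G+ (5.04 to 5.58). It measured 6.75, 5.73 and 6.56 in d4 G+, then 8.06, 7.88 and 7.52 in d5 Glow and 8.48, 8.01 and 6.36 in d5 Ghigh. These d5 levels were at least 7.32-fold and at least 6.36-fold above ESC (limma adjusted p = 3.01e-07 and 9.91e-07). The d4 G+ level was at least 2.64-fold above ESC (limma adjusted p = 0.00403), and that call was lost without ESC replicate 1 or 3 or d4 G+ replicate 1 or 3, with a lowest fitted difference of 1.32 against an ESC signal at background. In d6 G+H+ it was 4.94 to 5.26.

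Isl1 was highest in d6 G+H+ and, among the Gsc-positive populations from d3 on, lowest in d5 Ghigh. Its probe, printed on 10 spots of each array, was not above background on any ESC array (4.92, 4.81 and 5.24), measured 7.49, 7.14 and 7.17 in d3 G+, 6.62, 7.35 and 6.91 in d4 G+, 7.48, 6.87 and 5.93 in d5 Glow and 5.77, 5.94 and 5.58 in d5 Ghigh, and at d6 was 7.48, 7.28 and 6.68 in G+H- and 8.78, 8.86 and 8.38 in G+H+. The d3 G+ level was at least 4.77-fold above ESC (limma adjusted p = 3.05e-06) and the d6 G+H+ level at least 12.6-fold (limma adjusted p = 8.61e-11). The d4 G+ and d5 Glow levels were at least 3.85-fold and at least 3.36-fold above ESC (limma adjusted p = 2.63e-05 and 1.19e-04), and the arrays of d3 G+, d6 G+H-, d4 G+ and d5 Glow, in this order of their means, overlapped between neighbours. The d6 G+H+ arrays did not overlap with those of any other untreated group. The d5 Glow call was lost without d5 Glow replicate 1, where the fitted difference went from 1.77 to 1.41, both against an ESC signal at background. Between d4 G+ and d5 Ghigh the difference was -1.20, which was not called (limma adjusted p = 0.0346), and between d5 Ghigh and d6 G+H- it was 1.39 at a limma adjusted p of 0.00707, past the p threshold but under the minimum fold.

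Nkx2-5 and Mef2c, central factors of the heart circuit, were called in no comparison. Nkx2-5 had untreated means from 5.55 in d5 Ghigh to 6.72 in d4 G+, and adjacent groups in that order overlapped throughout. It was 6.75, 7.49 and 5.67 in d6 G+H+ against 5.60, 5.94 and 5.32 in d6 G+H-. Mef2c was above background on 10 of 42 arrays and its untreated group means lay between 4.78 and 5.04, so that a change at low level was not detectable with this probe.

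Meox1, like Hand2, was called against ESC in d4 G+ and in all d5 populations. It was 5.28, 4.45 and 5.15 in ESC, where 1 of 3 arrays was above background, 7.47, 6.87 and 7.31 in d4 G+, and 9.14, 9.02 and 7.85 in d5 Glow, a fitted difference of 3.70 ± 0.44 from ESC (SE, n = 3, limma adjusted p = 4.30e-08). At d6 it was 5.01, 5.44 and 6.15 in G+H- and not above background on any G+H+ array. Smarcd3 was 7.15, 6.88 and 7.33 in ESC, measured 9.44 and 8.77 in d5 Glow replicates 1 and 2 but 7.12 in replicate 3, and at d6 was 5.22, 5.42 and 5.24 in G+H- and 5.47, 6.03 and 5.05 in G+H+. None of these untreated differences of Smarcd3 was called without a block: the difference from ESC was 1.32 in d5 Glow (limma adjusted p = 0.158) and -1.83 in d6 G+H- (limma adjusted p = 0.027). All d6 G+H- arrays lay below the ESC arrays, as for 22% of all genes, and 10.2% of all genes were called there without a block. That d6 G+H- difference was called with the replicate block (-1.83, limma adjusted p = 0.00456), with slide as a fixed block (-1.79, 0.00975) and with the scan as a fixed block (-1.83, 0.0099).

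The d3 and d4 comparisons ask how cells with the Gsc reporter differ from the G- cells of the same day. All 10 means were higher in d3 G+ than in d3 G-, and for 8 genes every G+ array was above every G- array, as it was for 10.2% of all genes. Mef2c and Tbx5 were above background on 1 of 3 arrays in each group, so their differences lie near background. No member was called at d3, however, where 1.8% of all genes were called and 6 members had an unadjusted limma p under 0.05. Hand1 was 9.93, 9.58 and 9.97 in d3 G+ against 7.13, 6.79 and 5.84 in d3 G-, a 9.45-fold difference at a limma adjusted p of 0.0153, and Foxf1 differed by 2.92 (limma adjusted p = 0.0167). Arrays with the same replicate number deviated together at d3 (correlations 0.16 to 0.67) and at d4 (0.28 to 0.48). With a replicate block over all days Hand1, Tbx20 and Foxf1 were called at d3 (2.04% of all genes called). With the replicate number of each day as a block, chosen after the values were seen, Hand2 was called as well (2.19%), and limma adjusted p values of the 4 genes were at most 7.42e-06.

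At d4 the difference had the same direction for all 10 genes, with every G+ array above every G- array for 9 (13.9% of all genes). Mef2c was above background on no G+ array and 1 of the 3 G- arrays, and Tbx5 on 1 of the 3 G- arrays. A single gene, Tbx20, was called (2.28% of all genes). Its arrays read 8.81, 8.30 and 7.92 in G+ and 6.83, 5.97 and 6.10 in G-, a difference of 2.04 ± 0.49 (SE, n = 3, limma adjusted p = 0.00881). The call was lost when any 1 of the 6 arrays was left out, at differences of 1.81 to 2.31. Hand2, above background on 2 of the 3 G- arrays, differed by 2.53 and missed the call at a limma adjusted p of 0.0104, and Foxf1 differed by 2.93 (0.0151). The replicate block over all days called Foxf1, Hand2 and Tbx20 (2.51% of all genes), and the block within each day called Foxf1, Hand1, Hand2, Meox1, Tbx20 and Tbx5 (2.72%). A test of whether G+ and G- cells differed otherwise at d4 than at d3 called no gene of the array (0%), and no member had an unadjusted limma p under 0.05 for it.

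At d5 Tbx5 was the only member called between G- and the Gsc-positive cells: it was 6.66, 5.53 and 5.39 in G-, and 1.96 ± 0.39 higher in Glow (SE, n = 3, limma adjusted p = 0.00403, 0.758% of all genes called) and 1.76 ± 0.39 higher in Ghigh (limma adjusted p = 0.00392, 2.58% of all genes called). The Glow arrays lay above all G- arrays, as for 6.92% of all genes, while 1 Ghigh array, at 6.36, lay below the highest G- array. Both calls were lost without d5 G- replicate 2 or 3, and without replicate 1 or 2 of the Gsc-positive group, with lowest differences of 1.73 and 1.33. With slide as a fixed block the Ghigh call was lost as well, at 1.61 (limma adjusted p = 0.0183). For the other members the Ghigh and G- arrays overlapped, and 6 of the 10 means were lower in Ghigh than in G-. Glow and Ghigh differed by no called member (0.267% of all genes, 5 members with an unadjusted limma p under 0.05). Same-numbered arrays deviated together between Glow and G- (0.31 to 0.67) and between Ghigh and Glow (0.30 to 0.66), and the block within day added Foxf1 to Tbx5 for Glow against G- (1.24% of all genes) and called Hand1 lower in Ghigh than in Glow, by -1.97 (limma adjusted p = 0.00507, 0.548% of all genes).

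**Figure D3:**
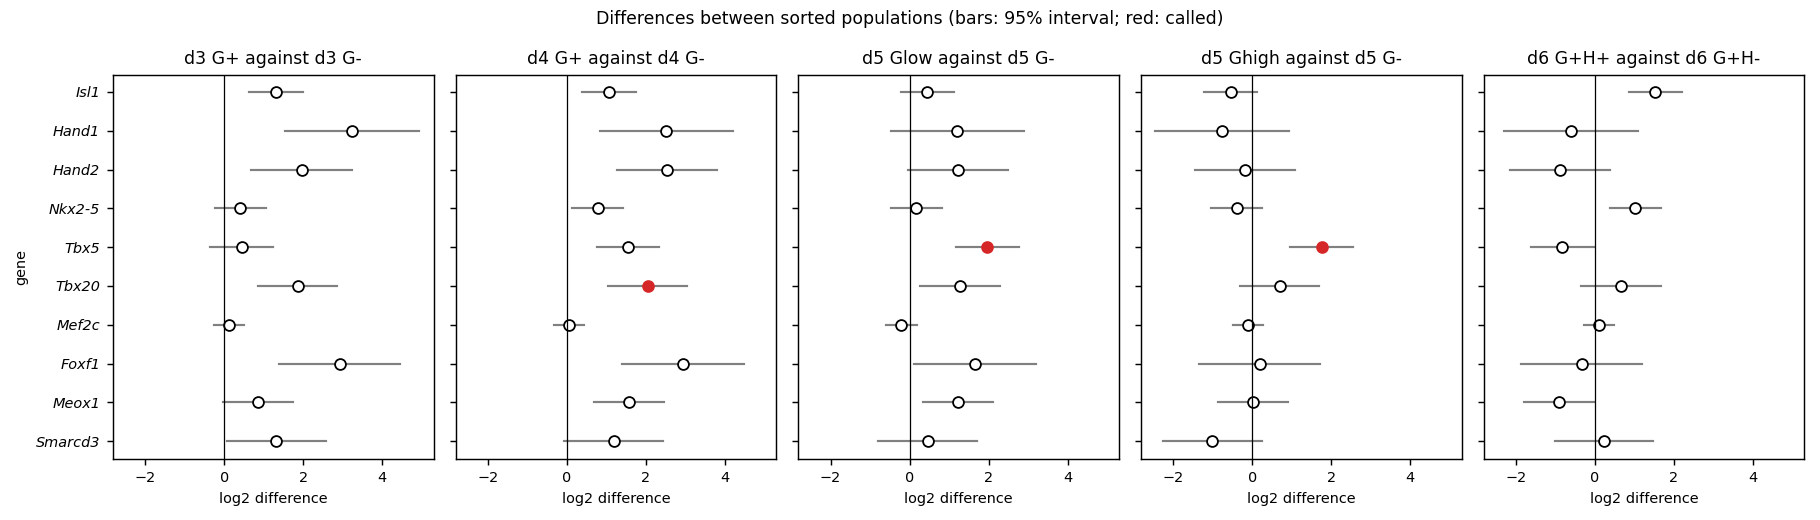
Log2 difference of each member between sorted populations of the same day, with the 95% interval of the limma fit and called differences in red. At d3 and d4 every point lies right of 0, at d5 only Tbx5 is called, and at d6 Isl1 has the largest difference at 1.53 without a call.

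Replicate 3 read low at d5. It was the lowest of the 3 arrays for all 10 genes in G- and in Glow and for 8 of 10 in Ghigh. Hand1 in Ghigh was 11.47, 11.11 and 7.27, Foxf1 10.72, 10.11 and 6.19, and Smarcd3 8.23, 7.50 and 5.19. The definitive endoderm markers moved the other way in these Ghigh arrays, with means over 10 genes of 11.53, 11.77 and 12.75, and the other lateral plate genes (24 measured) moved with the members, at 9.14, 8.89 and 7.96. Replicate 3 also sat on other slides scanned at another time, and the part of either in the d5 values was not tested. Within replicates 1 and 2, d5 Ghigh exceeded ESC by 4.41 for Hand1 and 4.44 for Foxf1, and within replicate 3 by 0.43 and 0.95.

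**Figure D4:**
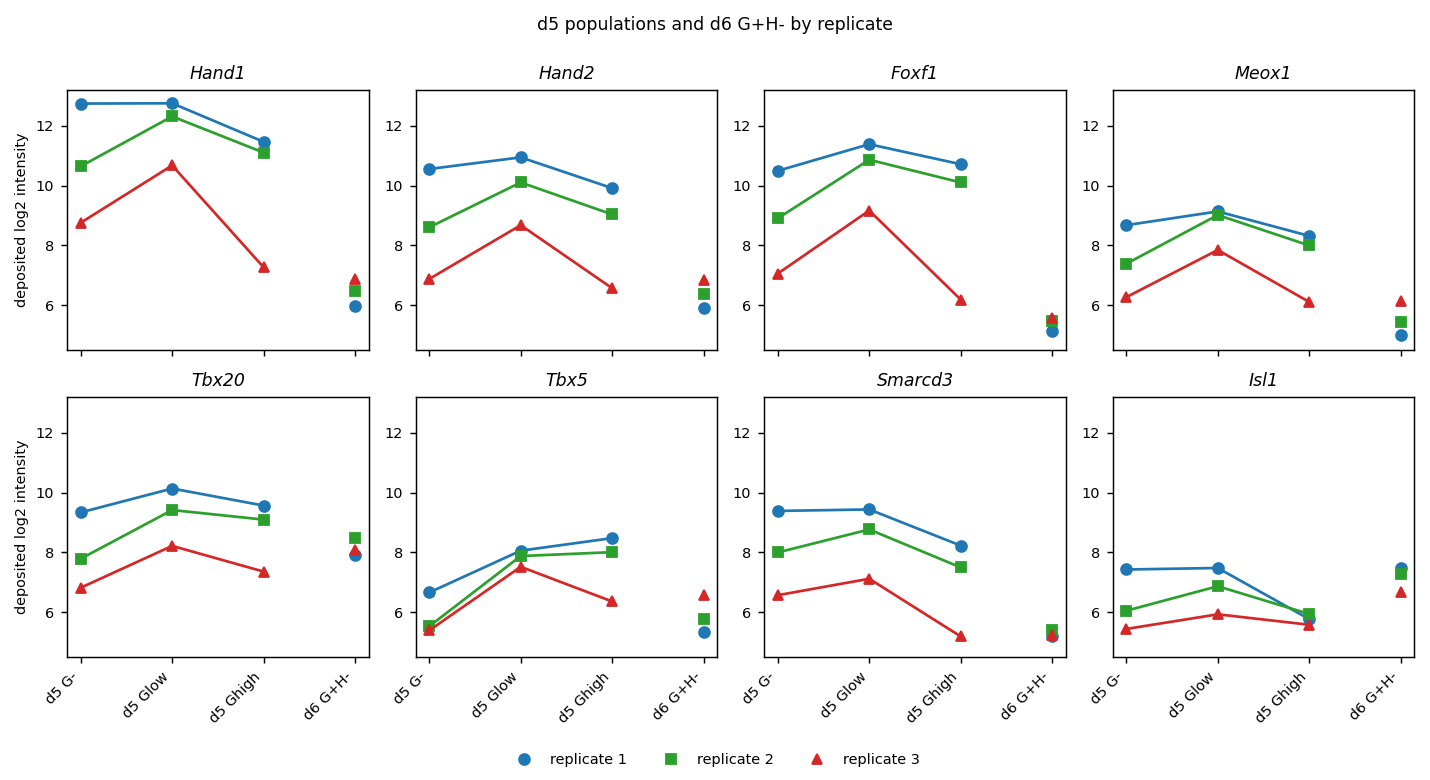
Deposited log2 intensity of 8 members in the 3 sorted d5 populations, joined for arrays of 1 replicate number, and in d6 G+H-. Replicate 3 (triangles) runs below the others at d5, from 7.27 to 10.68 for Hand1, while in d6 G+H- it is the highest of the 3 for Hand1, at 6.87.

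The G- cells of d3 and d5 were compared as well. From d3 to d5, 5 members rose in G- (0.863% of all genes called): Hand1 by 4.13 ± 0.83, Hand2 by 3.78 ± 0.62, Foxf1 by 3.34 ± 0.76, Tbx20 by 2.57 ± 0.49 and Meox1 by 2.24 ± 0.44 (SE, n = 3, limma adjusted p = 2.72e-04 to 0.00822). In d3 G- Hand2 was above background on 1 and Meox1 on 2 of the 3 arrays, so their fitted differences are not exact. Of the cell type markers, 3 of 10 for endoderm were called higher in d5 G- than in d3 G-, Gata4 (3.12), Cxcr4 (2.71) and Sox17 (1.96). Of 12 for pluripotency 4 were lower and 1 higher. The higher 1 was Tbx3 (3.33), which is also among the cardiac transcription factors counted below. The part of these markers in the members' rise was not tested. Within replicate 3 these differences were 2.92, 1.69, 1.67, 1.56 and 1.11, and within replicates 1 and 2 they were 4.74, 4.82, 4.17, 3.08 and 2.81. Without d5 G- replicate 1, in which Hand1 reached 12.75, none of the 5 was called, with Hand1 at 3.12 and Hand2 at 2.84. Without d5 G- replicate 2 or d3 G- replicate 3, Hand1 and Foxf1 were not called, without d3 G- replicate 2 Meox1 was not either, and without d3 G- replicate 1 Foxf1 was not. Between the Gsc-positive populations no member was called from d3 G+ to d4 G+ (0.0334% of all genes), from d4 G+ to d5 Glow (0.138%) or from d4 G+ to d5 Ghigh (1.15%), with 4, 3 and 3 members at an unadjusted limma p under 0.05. Tbx5 came closest in the step to d5 Glow, at 1.47 with a limma adjusted p of 0.0607.

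From d5 Ghigh to d6 G+H-, 4 members fell (2.17% of all genes called): Foxf1 fell by 3.61 ± 0.76, Hand1 fell by 3.51 ± 0.83, Meox1 fell by 1.94 ± 0.44 and Tbx5 fell by 1.73 ± 0.39 (SE, n = 3, limma adjusted p = 0.00187 to 0.00583). Hand1 went from 11.47, 11.11 and 7.27 to 5.97, 6.46 and 6.87, and every d6 G+H- array was lower, as for 13.3% of all genes. The falls rest on replicates 1 and 2: within them the differences were -5.10 for Foxf1, -5.07 for Hand1, -2.93 for Meox1 and -2.69 for Tbx5, and within replicate 3 they were -0.63, -0.40, 0.04 and 0.20. Without all replicate 3 arrays, an alternative chosen after the values were seen, 7 members were called (3.67% of all genes), and without d5 Ghigh replicate 1, d5 Ghigh replicate 2 or d6 G+H- replicate 1 all 4 calls were lost, with lowest falls of -2.75 for Foxf1 and Hand1, -1.52 for Meox1 and -1.30 for Tbx5. Without d6 G+H- replicate 2 only Foxf1 was called, and without d6 G+H- replicate 3 Hand1 was not. Tbx20 was not called, at a difference of -0.51 (95% interval -1.52 to 0.49). Foxf1 and Meox1 were above background on 2 of the 3 d6 G+H- arrays. Of the markers, 4 of 10 for the primitive streak were called lower in d6 G+H- than in d5 Ghigh, among them Mesp1 (-4.20), T (-2.65) and Wnt3 (-2.20). Array means of the 10 streak markers were 10.21 to 10.63 in d5 Ghigh and 8.84 to 9.55 in d6 G+H-. Of 10 visceral endoderm markers 4 were called higher, with array means of 5.99 to 6.47 and 7.34 to 7.71, and 2 of 10 definitive endoderm markers were higher. The part of these cell types in the members' fall was not tested.

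Between the d6 populations no gene of the array was called (0%), and 4 members had an unadjusted limma p under 0.05. Isl1 differed most, at 8.78, 8.86 and 8.38 in G+H+ against 7.48, 7.28 and 6.68 in G+H-, a 2.88-fold difference (limma adjusted p = 0.171). Every G+H+ array of Isl1 lay above every G+H- array, as for 4.86% of all genes. Hand2, Tbx5 and Meox1 were lower in every G+H+ array than in any G+H- array, as were 4.08% of all genes. Hand2 was lower by -0.88, while Tbx5 was above background on 1 and Meox1 on 0 of the 3 G+H+ arrays, so their differences are not exact, and that of Meox1 was at least 1.5-fold. Same-numbered d6 arrays deviated together (0.51 to 0.71), and with the block within day Isl1 was called at 1.53 ± 0.22 (SE, n = 3, limma adjusted p = 0.00218, 0.062% of all genes called).

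With EPZ6438 during differentiation, 3 members were lower at d6 than in Control, where 2.78% of all genes were called. Tbx5 was 9.69, 9.03 and 10.08 in Control and 7.05, 7.61 and 6.76 in ADE_EPZ, and fell by 2.46 ± 0.39 (SE, n = 3, limma adjusted p = 5.35e-05), a 5.51-fold change. Meox1 was 9.92, 9.08 and 9.90 against 7.01, 7.53 and 7.05, and fell by 2.44 ± 0.44 (limma adjusted p = 2.13e-04). Smarcd3 was 10.09, 9.65 and 9.59 against 7.54, 7.84 and 6.74, and fell by 2.40 ± 0.61 (limma adjusted p = 0.00786). In these 3 genes each Control array lay above each ADE_EPZ array, as in 19.8% of all genes, and the difference was between -3.04 and -2.03 on each of the 3 slides. The Control and treated arrays of a slide carry different replicate numbers, so within-slide differences are not between arrays of the same number. The calls of Tbx5 and Meox1 held when any 1 array was left out, and that of Smarcd3 was lost each time, at differences of -2.64 to -2.08. The Smarcd3 call was also lost with 75th percentile scaling and with only the arrays of the inhibitor series in the fit. Tbx20 and Foxf1 were also lower in every ADE_EPZ array, by -1.41 and -1.47, and were not called (limma adjusted p = 0.0637 and 0.279).

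Isl1, Nkx2-5 and Mef2c had the opposite direction in ADE_EPZ. Isl1 was 8.88, 8.53 and 8.28 against 7.25, 7.33 and 6.83 in Control, higher by 1.43 ± 0.33 (SE, n = 3, limma adjusted p = 0.0036), past the p threshold but under the minimum fold, and by 0.95 to 2.06 within slides. Nkx2-5 was 7.05, 7.55 and 6.39 against 5.86, 5.97 and 5.63, a difference of 1.18 with a limma adjusted p of 0.0114. Mef2c was above background on all 3 ADE_EPZ arrays (5.54, 5.42 and 6.66) and on none of the Control arrays, at least 1.64-fold higher (limma adjusted p = 0.00961), a difference under the minimum fold with 1 array far above the others. In these 3 genes each ADE_EPZ array lay above each Control array, as in 20.1% of all genes.

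Treatment of the ESCs alone left no member called at d6 (0.429% of all genes called, 5 members with an unadjusted limma p under 0.05). Tbx5 was 8.22, 8.45 and 7.32 in ES_EPZ, lower than Control by -1.60 ± 0.39 (SE, n = 3, limma adjusted p = 0.0242), and for 6 members every ES_EPZ array lay below every Control array, as for 14.2% of all genes. Hand1, Foxf1 and Smarcd3 varied widely in ES_EPZ, with replicate 3 at 5.83, 5.87 and 6.70 and the other arrays no lower than 8.27, 7.83 and 8.86. Compared directly, ADE_EPZ and ES_EPZ differed by no called member (0.129% of all genes, 5 members with an unadjusted limma p under 0.05). The difference was 1.23 for Nkx2-5 (95% interval 0.59 to 1.87), 0.97 for Isl1 (0.29 to 1.65), -1.05 for Meox1 (-1.94 to -0.16) and -0.86 for Tbx5 (-1.65 to -0.06). Both treated groups share the Control arrays, and their differences from it are no independent observations.

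**Figure D5:**
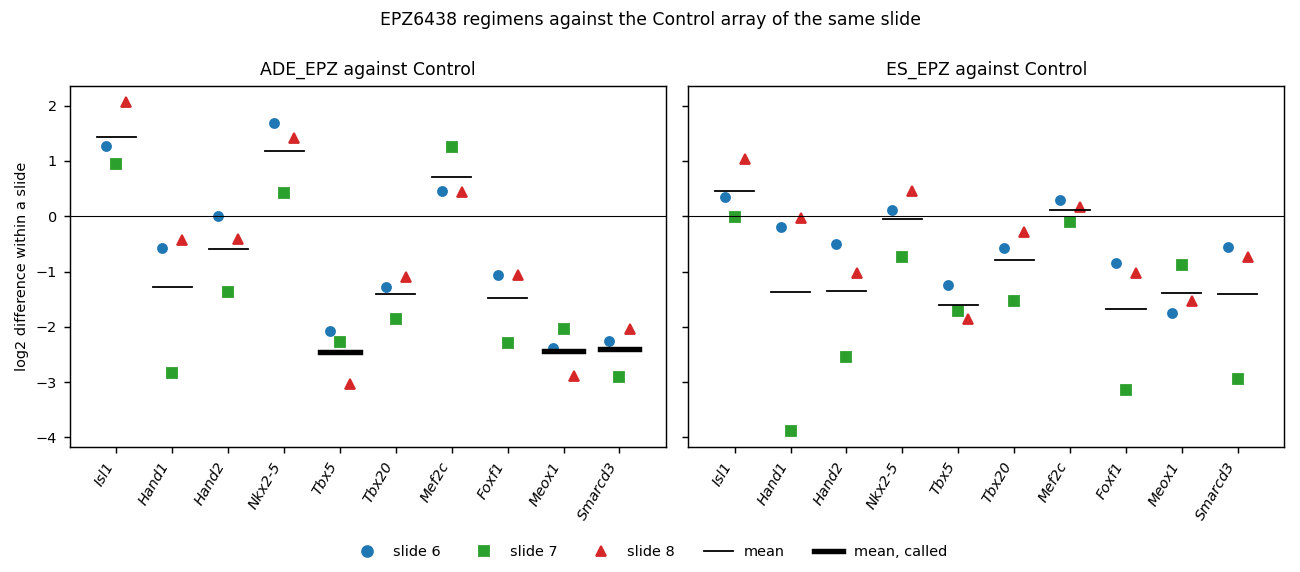
Log2 difference of each member between an inhibitor-treated array and the Control array of the same slide (slides 6, 7 and 8), with the mean as a bar that is thick where the member was called. The treated and Control arrays of a slide carry different replicate numbers. In ADE_EPZ the points of Tbx5, Meox1 and Smarcd3 all lie below -2 and those of Isl1, Nkx2-5 and Mef2c above 0. In both regimens Hand1, Hand2, Tbx20, Foxf1 and Smarcd3 fall furthest on slide 7.

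Cell type markers also differed between the inhibitor groups. Means over the 10 definitive endoderm markers were 11.53 to 11.97 in Control, 12.64 to 13.04 in ADE_EPZ and 12.29 to 12.71 in ES_EPZ, with all 10 above background on every array. Means over 10 primitive streak markers were 9.95 to 10.08 in Control, 8.68 to 9.09 in ADE_EPZ and 9.03 to 9.70 in ES_EPZ, with 8 or 9 of 10 above background. In ADE_EPZ, where 2.78% of all genes were called in either direction, 2 endoderm markers were called higher and 3 streak markers lower. Of 10 neural markers 2 were called higher, Nrn1 (2.05, above background on 1 of 3 Control arrays) and Map2 (at least 2.79-fold), with array means of 6.09 to 6.35 in Control and 6.67 to 6.91 in ADE_EPZ. Array means of 12 pluripotency markers were 8.01 to 8.58 and 8.70 to 9.19, with 1 called higher and 1 lower. The lower 1 was Tbx3 (-3.34), which is also among the cardiac transcription factors counted below. Of 12 haemato-vascular markers 1 was called, Etv2 (-2.20). The part of cell type shares in the members' differences was not tested.

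Other genes of the same pathways were counted from lists chosen with earlier results of these data known. Of all genes, 7.74% were called in either direction in d5 Glow against ESC and 2.78% in ADE_EPZ against Control. Among 29 other cardiac transcription factors, 9 were called higher and 1 lower in d5 Glow than in ESC, among them Gata4 (5.56), Gata6 (5.15) and Mesp1, which was not above background in ESC and was at least 67.8-fold higher. They mark nascent mesoderm or both heart and endoderm. In ADE_EPZ against Control 2 were higher, among them Tbx1 (2.97), and Tbx3 was lower (-3.34). Of 24 lateral plate and BMP-responsive genes, 12 were higher and 1 lower in d5 Glow than in ESC, with the adhesion molecule Cdh11 at least 39-fold and the receptor Pdgfra at least 43.5-fold above an ESC signal at background. Under ADE_EPZ 4 of the 24 were lower, among them the ligand Bmp4 (-3.77) and the homeobox gene Msx2 (-3.45), and none was higher. Of 18 paraxial and somite genes, the tissue for which Meox1 is known, 1 was higher and 2 lower in d5 Glow than in ESC, and 2 were higher in ADE_EPZ than in Control, Pax3 (2.08) and Dll1 (1.91).

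Of 20 contractile and secreted products of heart muscle, 3 were called higher in d5 Glow than in ESC, among them Tnnt2 (2.73, above background on 2 of 3 ESC arrays) and Tnni1 (at least 5.23-fold), and 1 lower, Myh6 (-2.76). In d6 G+H+, where 11.1% of all genes were called, 5 were higher and 1 lower than in ESC. Among the higher were the light chains Myl3 (5.02) and Myl7 (3.50). In ADE_EPZ 2 were higher than in Control, Myl3 (3.62) and Myh7 (2.65). Of 24 other BAF subunits, the complex of SMARCD3, Dpf3 was at least 8.33-fold higher in d4 G+ and at least 11.8-fold higher in d5 Glow than in ESC. In d4 G+ 7.41% of all genes were called in either direction. Array means over the 24 were 9.81 to 9.91 in ESC, 10.26 to 10.40 in d4 G+ and 10.20 to 10.39 in d5 Glow. In ADE_EPZ Dpf1 alone of the 24 was called, at -2.07. The median of the 24 was -0.27 in ADE_EPZ against Control, against -0.01 over all genes.

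As a description over the 11 untreated group means, Hand1, Foxf1, Meox1 and Hand2 correlated with each other at Pearson r of 0.92 to 0.99, and Smarcd3 with Hand1 at 0.90. Tbx5 correlated with Hand2 at 0.89 and with Hand1 at 0.74. Isl1 correlated with Hand1 at 0.08 and with Tbx20 at 0.67, and Nkx2-5 with Hand1 at 0.05. The group means share slides, and each includes a replicate 3. Among 2972 genes that spanned at least 2 log2 units, the nearest to Hand1 were Foxf1 (0.991), Pmp22 (0.987) and Pdgfrb (0.978), and the nearest to Foxf1 were Hand1, Ccr7 (0.981) and Pdgfrb. Hand2 was nearest to Hspa12b, Klf14 and Meox1 (0.974 each), Meox1 to Ccr7 (0.981), Hspa12b (0.979) and Hand2, Tbx20 to the troponin gene Tnnt3 (0.986), Npc2 (0.980) and Dlg5 (0.977), Tbx5 to Prss39 (0.978), AW549542 and Cygb (0.962 each), Smarcd3 to Twist2 (0.961), Col1a1 (0.939) and Morc4 (0.933), and Isl1 to Grin2c (0.923), Rbm24 and Adam10 (0.914 each).

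For 2 members the array holds further probes. Tbx20 has 2 dimmer probes for other RefSeq transcripts. Among the untreated groups their highest means were in d6 G+H+ (7.71) and d5 Glow (7.69) for the one and in d5 Glow (7.26) and d6 G+H+ (7.18) for the other. Both were called against ESC in these 2 populations and in no other comparison, where the brightest probe was called in 8. In d4 G+ against G- they differed by 1.36 (limma adjusted p = 0.152) and 0.65 (0.702), without a call. The dimmer Foxf1 probe was above background on 10 of 42 arrays, had its highest mean in d5 Glow at 6.00, was not above background on any Control array, and was called in no comparison.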

How the data were processed

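RNA of 42 samples was hybridised to Agilent one-colour arrays with gene models of build mm9. The authors deposited log2 values made, per the labels, with limma, by the normexp method (offset 10) for the background and then by quantile normalisation over the arrays, and also the scanner files, which hold the intensity of each spot as deposited. Normexp shifts dim values upward, so differences of dim probes are understated. The deposited log2 values were used, and values recomputed from the scanner files correlated with them at 0.999957 or above on each array.

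Spots of a probe were averaged to 55681 probes, and 21865 of 23171 RefSeq accessions were named through a RefSeq table of assembly GRCm38.p6. limma 3.58.1 in R 4.3.3 was fitted with 1 mean per group over all 42 arrays, with Benjamini-Hochberg adjustment over all probes, and was tested on simulated data. Each gene was taken at its brightest probe. All 10 members are named, the 8 called in any comparison with their 3 nearest genes, and up to 3 called genes of each other list. Members and lists were chosen with earlier results of these data known. Groups were taken from the labels, and the series design calls the 3 arrays of a group independent experiments. Alternatives covered background correction, scaling, probe filters, outlier spots, the arrays in the fit, slide and replicate blocks, the threshold, other probes and each array left out. A scan block, a replicate block within day and the fit without replicate 3 were chosen after seeing the data. Same-numbered arrays deviated together, each correlation above 0.1, in 9 of 24 comparisons.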

Additional observations from a re-analysis of the deposited data

How the results depend on the processing

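Over all alternatives 46 called differences were fitted 969 times again: 834 stayed called in the same direction, 135 kept the direction without a call, and 0 reversed. Values recomputed from the scanner files, quantile normalisation within each series, the removal of outlier spots and the filter on probes kept all 46 calls, and fitting only the compared groups kept 25. The causes were not tested. Low signal limits Mef2c and the ESC values of Isl1, Hand2 and Tbx5. The 75th percentile scaling moved the median of all genes by at most 0.13, in d3 G+ against d3 G- (from 0.01 to 0.14), and the share of higher calls from 64% to 51.4% in d6 G+H- against d5 Ghigh, from 65.5% to 85.7% in d5 Glow against d4 G+ and from 71.4% to 100% in d4 G+ against d3 G+.

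Counts of called members that moved were as follows, with the range over these comparisons of the share of all genes called under the setting and, after it, as reported. With 75th percentile scaling they were 4 in d3 G+, 1 in d3 G-, 1 in d4 G- and 4 in d6 G+H- against ESC, 2 in d3 G+ against G-, 2 in d4 G+ against G-, 0 in d5 Ghigh and 0 in d5 Glow against G-, and 1 in d6 G+H- against d5 Ghigh (0.696% to 13.4%, from 0.758% to 10.2%). At an adjusted p of at most 0.05 with no minimum fold they were 6 in ADE_EPZ and 1 in ES_EPZ against Control, 6 in d3 G+ and 4 for d6 G+H- against ESC, 4 and 5 in G+ against G- at d3 and d4, and 2 in d5 Ghigh against d4 G+ (3.29% to 35.1%, from 0.429% to 10.2%). With no background correction they were 1 in ES_EPZ against Control, 1 in d3 G+ against ESC, 0 in d4 G+ against G- and 0 in d5 Ghigh against G- (0.396% to 5.24%, from 0.429% to 6.59%). With a normexp offset of 50 they were 0 in d3 G+, 4 in d4 G+ and 1 for d6 G+H- against ESC, 0 in d4 G+, d5 Ghigh and d5 Glow against G-, and 2 in d6 G+H- against d5 Ghigh (0.448% to 7.66%, from 0.758% to 10.2%). With only probes well above background they were 4 in d3 G+ against ESC and 3 in d4 G+ against G- (3.25% to 9.01%, from 2.28% to 6.59%). With only the arrays of the series in the fit the count was 0 in d4 G+ against G- (2.02%, from 2.28%), and with quantile normalisation within each series it was 2 (2.32%). With only the compared groups in the fit they were 4 in d3 G+, 0 in d5 G-, 2 in d5 Ghigh and 4 for d6 G+H- against ESC, 4 and 4 in G+ against G- at d3 and d4, 0 in d5 Ghigh and d5 Glow against G-, 0 in d5 G- against d3 G- and 0 in d6 G+H- against d5 Ghigh (0% to 9.85%, from 0.758% to 10.2%).

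With slide as a fixed block the counts were 4 in d3 G+ against ESC, 3 in d3 G+ against G- and 0 in d5 Ghigh against G- (1.95% to 6.65%, from 1.8% to 6.59%). With slide as a random block (consensus correlation 0.21) they were 1 in ES_EPZ against Control, 4 in d3 G+ against ESC, and 3 and 4 in G+ against G- at d3 and d4 (0.758% to 6.66%, from 0.429% to 6.59%). With the scan as a fixed block they were 4 in d3 G+ against ESC and 3 and 3 in G+ against G- at d3 and d4 (2.02% to 6.69%, from 1.8% to 6.59%). Without all replicate 3 arrays they were 4 in d3 G+ against ESC, 1 and 2 in G+ against G- at d3 and d4, 1 in d5 Glow against d4 G+, 0 in d5 Glow against G- and 7 in d6 G+H- against d5 Ghigh (0.272% to 5.98%, from 0.138% to 6.59%).

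With the replicate block the counts were 4 in d3 G+ against ESC and 3 and 3 in G+ against G- at d3 and d4 (2.04% to 6.69%, from 1.8% to 6.59%), and it moved no other count by over 1.5 times. With the replicate block within day they were 4 and 6 in G+ against G- at d3 and d4, 2 in d5 Glow against G-, 1 in d5 Ghigh against Glow, 1 in d6 G+H+ against G+H- and 2 in ES_EPZ against Control (0.062% to 2.72% over the 6, from 0% to 2.28%). Same-numbered arrays of ES_EPZ and Control correlated at -0.05 to 0.20 and lay on different slides. This does not settle whether they are paired by number.

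Leaving out 1 array at a time gave 1 to 1 members in d3 G+, 6 to 7 in d4 G+, 2 to 6 in d5 G-, 6 to 7 in d5 Glow, 4 to 6 in d5 Ghigh and 2 to 2 in both d6 populations against ESC. It gave 0 to 1 in d4 G+, 0 to 2 in d5 Glow and 0 to 1 in d5 Ghigh against G-, 0 to 1 in d5 Ghigh against d4 G+, 0 to 6 in d6 G+H- against d5 Ghigh, 0 to 5 in d5 G- against d3 G- and 2 to 3 in ADE_EPZ against Control. It gave 0 to 0 elsewhere.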
